A study of Saccharomyces cerevisiae and Saccharomyces cerevisiae S288C with 30 samples.

Results

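Splicing of budding yeast (*Saccharomyces cerevisiae*) introns that carry no annotation was followed in a table of PSI values. PSI, given as a fraction from 0.01 to 1, is not defined in the sources used here. Its values read as the share of transcripts that keep the intron. On that reading, a PSI near 1 means that nearly all transcripts kept that intron and a low PSI that most had it removed. The sources do not say whether reads from introns already removed count towards PSI. Of 405 events in the table, 98 were introns marked as unannotated, against 279 annotated introns. Introns of the ribosomal DNA (8 introns) and of a fixed list of genes (15 introns) were left out, and the remaining 75 are described here. They were sorted by their place on the strand given in the name of each event: 21 lay within a gene, 27 lay 5′ of a gene, 6 lay 3′ of a gene, 17 lay antisense to a gene and 4 had no gene nearby. No gene nearby means here no gene within 600 nt on the same strand and no overlapping gene on the other strand. Only genes whose identifier gives a strand were searched, 6020 of 6477.

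The values came from 26 RNA-seq libraries in 13 groups, with 2 replicates in each group. In the TruSeq preparation, headed polyA in the table, the groups were dbr1_null, upf1_null and WT, all grown in rich medium (YPD) to an OD600 of 0.5 to 1, with no strain background given in the labels. In the Ribo-Zero preparation, in which ribosomal RNA was removed, the S288c groups were dbr1, +rap and -rap and the SK1 groups were sk1 and cells taken 0, 3, 6, 7.5, 8.5 and 12 h after transfer to sporulation medium. The label +rap is used as given, and no growth conditions are given for dbr1, +rap, sk1 and -rap. In the labels dbr1 and sk1 have no control of their own, so both were set against -rap, and what else set those cultures apart cannot be told apart from genotype or strain. PSI does not measure the expression of DBR1 or UPF1, so the genotypes were not checked here.

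Splicing removes an intron as a lariat, a ring closed at the branch point. Dbr1 is the enzyme that opens the lariat so that it can be degraded, and Upf1 is a helicase needed for nonsense-mediated decay, which destroys transcripts with an early stop codon. Most yeast genes lack introns, whereas ribosomal protein genes often carry one, in some cases in the 5′ leader, ahead of the coding sequence. SK1 is a strain that sporulates rapidly and synchronously and is widely used to study meiosis.

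Most of the 75 introns were rarely spliced. The median over introns of the mean PSI across libraries was 0.967, against 0.335 for the annotated introns, and 28 of the 75 averaged 0.98 or more. Only 21 averaged under 0.9 and 10 under 0.5. Of those 10, 6 lay just ahead of ribosomal protein genes, and the other 4 were within HOP2 (mean PSI 0.155), within LDO45 (0.316), 3′ of OSH2 (0.380) and 3′ of PDR12 (0.497). In 37 introns every library with a value stood at 0.9 or more.

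Place and PSI went together as a description. The median of the mean PSI was 0.984 within genes, 0.935 5′ of genes, 0.767 3′ of genes, 0.982 antisense to genes and 0.783 where no gene was near. Of the 17 antisense introns, 1, antisense to CHS5, averaged under 0.9. A low mean can rest on few libraries: 43 of the 75 introns had a value in all 26 libraries, and 7 had fewer than 13 values.

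**Figure D1:**
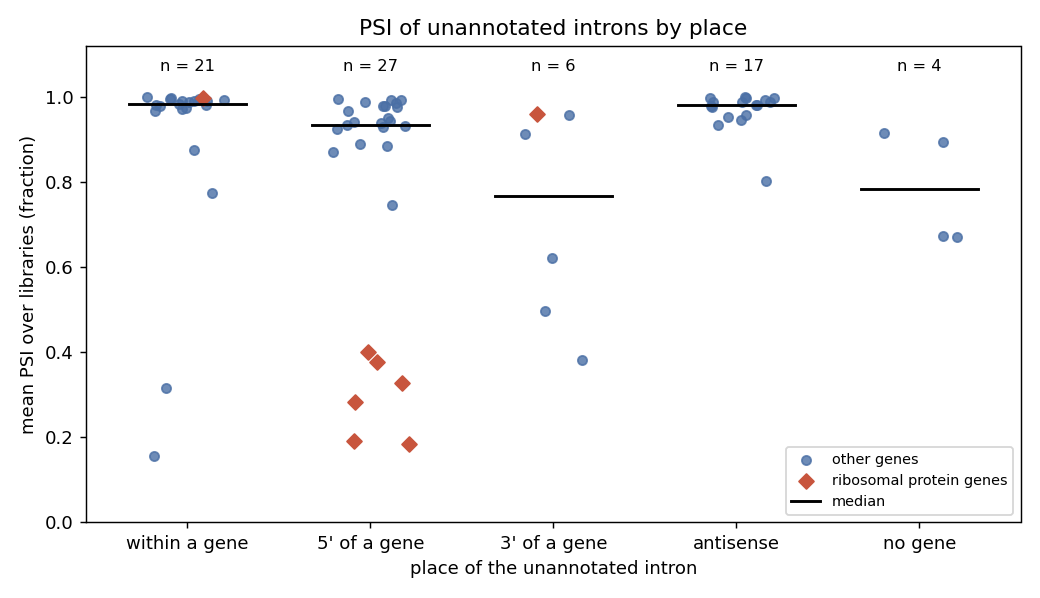
Mean PSI (fraction, y axis) of each of the 75 unannotated introns by place (x axis), 1 point per intron, with ribosomal protein genes as diamonds and the median of each place as a line. The 6 diamonds 5′ of genes lie between 0.183 and 0.4, while the antisense introns lie at 0.803 or more.

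The introns were 54 to 1185 nt long, with a median of 143 nt, the same median as for the annotated introns. A length that is a multiple of 3 leaves the reading frame intact when an intron is removed from coding sequence. Such a length was found in 22 of the 38 introns within or antisense to genes and in 8 of the 37 others. Among annotated introns it was found in 101 of 279. The 22 were 11 of the 21 introns within genes and 11 of the 17 antisense introns. Antisense introns are not removed from the coding sequence of that gene, yet their share was no lower. Their 11 include the 3 overlapping introns antisense to YNL190W. A link between length and reading frame was not tested. Some introns shared a splice site: the 3 introns antisense to YNL190W, of 60, 120 and 135 nt, end at 1 common 3′ splice site, and the 2 introns 5′ of SYN8, which encodes a SNARE protein of vesicle fusion, start at 1 common 5′ splice site. Such introns are not independent measurements. The intron within APE2 (mean PSI 0.997) overlaps an annotated intron and shares 1 end with an alternative 3′ splice site event. Its PSI does not say whether the annotated intron was removed.

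**Figure D2:**
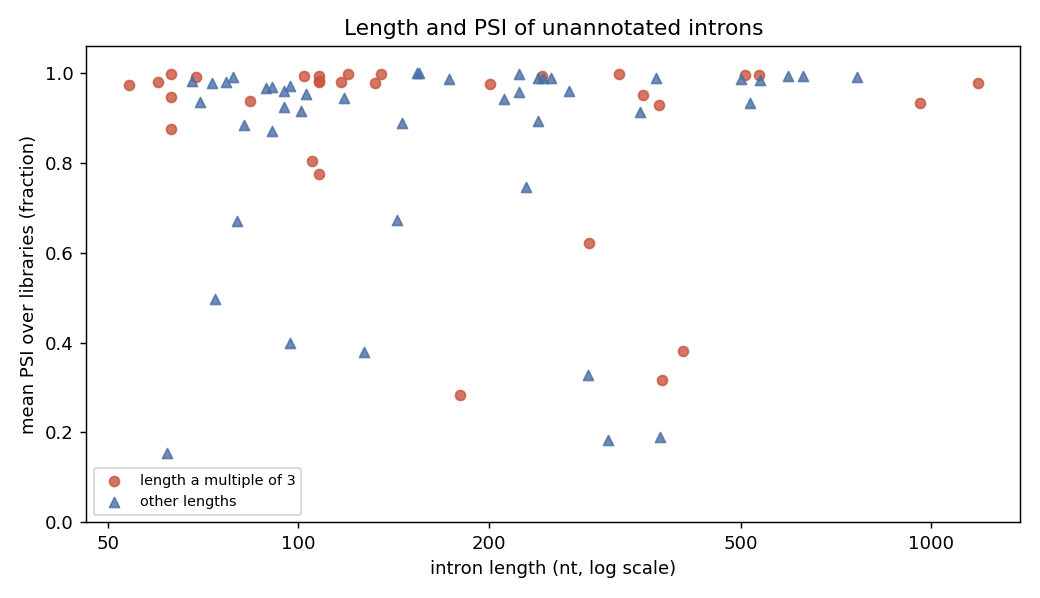
Length (nt, log scale, x axis) against mean PSI (fraction, y axis) of the 75 unannotated introns, with circles for lengths that are a multiple of 3 and triangles for other lengths. Introns with a mean under 0.5 occur from 62 nt (within HOP2) to 405 nt (3′ of OSH2).

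Libraries of the TruSeq preparation held a value for 71 to 73 of the 75 introns and those of the Ribo-Zero preparation for 56 to 70. The median difference between the 2 replicates of a group was 0.01 in each of the 13 groups. Single introns differed far more, up to 0.43 in +rap, at the intron 5′ of RPS26B, and up to 0.41 at 3 h of sporulation, at the intron 5′ of RPL29. The sources used here give no reads per intron, so no counting error is stated, and the labels do not say that replicates came from separate cultures, so p-values measure the spread between libraries only.

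Introns ahead of ribosomal protein genes were the best spliced group. All 6 ended 1 to 16 nt before the start of the annotated gene: 5′ of RPS26B at chromosome V, 423825 to 423951 (127 nt); 5′ of RPS8B at chromosome V, 362913 to 363092 (180 nt); 5′ of RPL29 at chromosome VI, 223441 to 223727 (287 nt). The other 3 were 5′ of RPS25A at chromosome VII, 534474 to 534781 (308 nt), 5′ of RPS29A at chromosome XII, 898549 to 898645 (97 nt), and 5′ of RPS29B at chromosome IV, 340811 to 341183 (373 nt), all in sacCer3 coordinates. Rpl29 belongs to the large ribosomal subunit and the other 5 proteins to the small subunit, and RPS29A and RPS29B encode near-identical copies of 1 protein. The RPL29 intron also overlaps the 3′ end of MIN10 on the same strand.

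In the dbr1 libraries all 6 of these introns stood at the ceiling of PSI, against low values in -rap. If removed introns that were not degraded count towards PSI, a high PSI in dbr1 need not mean unspliced transcripts. This was not tested. PSI 5′ of RPS29B was 1 and 1 in dbr1, against 0.07 and 0.09 in -rap, a difference of 0.92 (10.04 log2 odds, SE 0.57; limma adjusted p = 9.4e-08). PSI 5′ of RPS25A was 1 and 1 in dbr1, against 0.1 and 0.1 in -rap (difference 0.90, limma adjusted p = 3.54e-09). The remaining 4 differed by 0.835 (RPS26B, limma adjusted p = 7.9e-05), 0.835 (RPS8B, 3.07e-07), 0.775 (RPL29, 1.7e-06) and 0.755 (RPS29A, 7.19e-09). Non-overlapping groups with dbr1 higher were found in 54.9% of all events with values in both groups, and in all 6 of these introns; the lowest dbr1 value, 0.97 5′ of RPL29, was above the highest -rap value of the 6, 0.28 5′ of RPS29A.

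Over all 75 introns, 65 could be tested between dbr1 and -rap and 11 were called, all 11 of them higher in dbr1 (limma, Benjamini-Hochberg over all events of the table, adjusted p under 0.05). That is 16.9% of the introns tested, against 44.2% of all events called in either direction and 43.3% called as higher. Among annotated introns 120 of 205 were called (58.5%). The median PSI difference was 0.005 over the unannotated introns, against 0.05 over all events.

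Beside the ribosomal protein genes, 5 introns had higher PSI in dbr1. PSI 3′ of OSH2, a gene for an oxysterol-binding protein, was 0.87 and 0.72 in dbr1, against 0.16 and 0.23 in -rap (difference 0.60, limma adjusted p = 5.37e-06); the intron starts 37 nt after the gene's end, at chromosome IV, 417222 to 417626. LDO45, which encodes a lipid droplet protein made by splicing together neighbouring reading frames, had 0.72 and 0.58 in dbr1, against 0.31 and 0.47 in -rap (difference 0.26, limma adjusted p = 0.00168; chromosome XIII, 559783 to 560157). An intron on chromosome IV with no gene nearby, at 1406993 to 1407231, had 0.99 and 1 in dbr1, against 0.91 and 0.85 in -rap (limma adjusted p = 0.000277). At these 3 both dbr1 libraries were above both -rap libraries, as in 54.9% of all events. The LDO45 call was lost when only the dbr1 and -rap libraries were fitted (limma adjusted p = 0.163), and that of the chromosome IV intron on untransformed PSI (0.0975). Differences were small 5′ of MET4, a transcription factor of sulphur metabolism (0.04, limma adjusted p = 0.0432), and 3′ of IDP3, a peroxisomal isocitrate dehydrogenase (0.03, limma adjusted p = 0.0465). The MET4 call was lost without dbr1 replicate 1, dbr1 replicate 2 or -rap replicate 2 (limma adjusted p of 0.129, 0.141 and 0.403). The IDP3 call was lost without dbr1 replicate 1, dbr1 replicate 2 or -rap replicate 1 (0.113, 0.124 and 0.247).

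In the TruSeq libraries the same 6 ribosomal protein introns stayed low in dbr1_null. PSI 5′ of RPS29B was 0.09 and 0.09 in dbr1_null, against 0.06 and 0.05 in WT, and 5′ of RPS25A it was 0.12 and 0.16 in dbr1_null, against 0.09 and 0.08 in WT. The differences of the 6 introns ranged from 0.025 to 0.085. No unannotated intron of 71 tested passed an adjusted p of 0.05 in limma, against 3.18% of all events (2.92% as higher and 0.265% as lower), while 10 had an unadjusted p under 0.05. They included those 5′ of RPS29B, RPS8B, RPS25A and RPS26B, all higher in dbr1_null (limma unadjusted p = 0.0039, 0.0112, 0.0224 and 0.0262). The largest difference among those 10 was 3′ of OSH2, with 0.53 and 0.47 in dbr1_null and 0.32 and 0.29 in WT (difference 0.195, limma adjusted p = 0.123). PUS2, a pseudouridine synthase named here after its values were seen, went the other way at the intron 5′ of it, with 0.85 and 0.88 in dbr1_null and 0.96 and 0.98 in WT (difference -0.105, limma adjusted p = 0.104). Left-out replicates gave between 0 and 3 calls, the 3 without WT replicate 1.

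**Figure D3:**
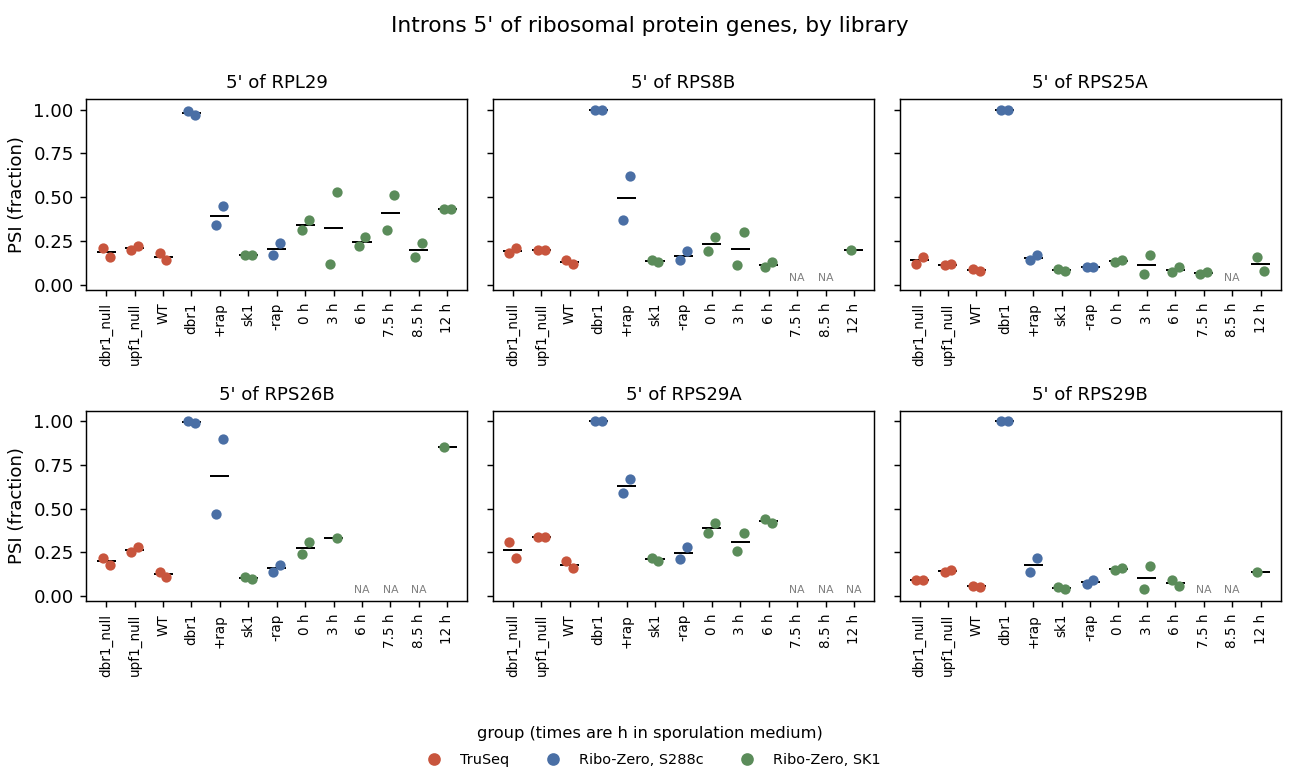
PSI (fraction, y axis) of the 6 introns 5′ of ribosomal protein genes in each library (points) by group (x axis), with the group mean as a bar and NA where neither library had a value. The dbr1 points lie at 0.97 or more in every panel, and the dbr1_null points lie at 0.31 or less.

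Loss of Upf1 was compared with WT in the TruSeq libraries, and few unannotated introns moved. Of 72 introns tested, 6 were called (8.33%), 5 as higher and 1 as lower in upf1_null; over all events 12.8% were called, 11.8% as higher and 1.05% as lower. PSI 5′ of RPS26B was 0.25 and 0.28 in upf1_null, against 0.14 and 0.11 in WT (difference 0.14, limma adjusted p = 0.0475). LDO45 had 0.39 and 0.41 in upf1_null, against 0.29 and 0.30 in WT (difference 0.105, limma adjusted p = 0.0161). PSI 5′ of RPS29B was 0.14 and 0.15 in upf1_null, against 0.06 and 0.05 in WT (difference 0.09, limma adjusted p = 0.0115).

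Both upf1_null libraries were above both WT libraries at these 3 introns, as in 45% of all events, and the calls rest on narrow margins. The RPS26B call was lost without any 1 of the 4 libraries (limma adjusted p of up to 0.214). The LDO45 call was lost without upf1_null replicate 2, WT replicate 1 or WT replicate 2 (up to 0.0766), and the RPS29B call without either upf1_null library (up to 0.0747). The fourth higher intron, 5′ of YLL056C, differed by 0.035 (limma adjusted p = 0.0161) and was lost without either upf1_null library (up to 0.108). None of these 4 calls held when only the upf1_null and WT libraries were fitted. The remaining 2 calls, antisense to TOS2 (difference 0.01) and 5′ of YMC1, a mitochondrial carrier (difference -0.01), are 1 step of the 2-decimal rounding between pairs of identical replicates (limma adjusted p = 0.000439 for both). PSI 5′ of RPS29A differed by 0.16, with 0.34 and 0.34 in upf1_null and 0.20 and 0.16 in WT, and did not pass the test (limma adjusted p = 0.093).

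In the +rap libraries 3 of the 6 ribosomal protein introns had higher PSI than in -rap. PSI 5′ of RPS26B was 0.47 and 0.90 in +rap, against 0.14 and 0.18 in -rap (difference 0.525, limma adjusted p = 0.0269). PSI 5′ of RPS29A was 0.59 and 0.67 in +rap, against 0.21 and 0.28 in -rap (difference 0.385, limma adjusted p = 0.00543). PSI 5′ of RPS8B was 0.37 and 0.62 in +rap, against 0.14 and 0.19 in -rap (difference 0.33, limma adjusted p = 0.0269). The other 3 were also above -rap in both libraries, as in 35.9% of all events, without passing the test: the differences were 0.19 for RPL29 (limma adjusted p = 0.245), 0.10 for RPS29B (0.166) and 0.055 for RPS25A (0.364).

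Of 64 introns tested between +rap and -rap, 6 were called (9.38%), 4 as higher and 2 as lower, while 21.9% of all events were called, 18.3% as higher and 3.59% as lower. Beside the 3 above these were 5′ of LIA1, the deoxyhypusine hydroxylase (difference -0.07, limma adjusted p = 0.0134), 5′ of SIP18, a hydrophilin made under osmotic stress (0.06, 0.0347), and 3′ of RPS16B, a small subunit protein (-0.025, 0.0489). Without +rap replicate 2 none of the 6 was called, and none held when only the +rap and -rap libraries were fitted. Without -rap replicate 1 there were 2 calls and without -rap replicate 2 there was 1 call. The dbr1, +rap and sk1 comparisons share the 2 -rap libraries, so their differences are not independent of each other.

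Between the strains, sk1 against -rap, the ribosomal protein introns differed little: all 6 differences lay between -0.055 and -0.015, and none passed the test. Of 56 introns tested, 3 were called (5.36%), all lower in sk1, against 1.7% of all events called and 1.36% called as lower. The largest was antisense to CHS5, a gene for the export of chitin synthase to the cell surface, with 0.67 and 0.47 in sk1, against 0.98 and 0.99 in -rap (difference -0.415, limma adjusted p = 0.000175; chromosome XII, 789114 to 789218). PSI 3′ of YAL064W-B was 0.70 and 0.73 in sk1, against 0.98 and 0.97 in -rap (difference -0.26, limma adjusted p = 0.000175; chromosome I, 12488 to 12775). SBA1, the Hsp90 co-chaperone p23, had 0.95 and 0.94 in sk1, against 1 and 1 in -rap, at an intron of 54 nt within the gene (difference -0.055, limma adjusted p = 0.00258; chromosome XI, 220778 to 220831).

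All 3 calls were kept when any 1 of the 4 libraries was left out, but the CHS5 call was lost when only the sk1 and -rap libraries were fitted (limma adjusted p = 0.077), and the SBA1 call on untransformed PSI (0.328). The other SK1 libraries, from sporulation medium, gave values on the same side. The test did not compare them, but they were part of the fit that set the spread. Introns that were not called could divide likewise. At the intron of 60 nt antisense to YNL190W, SK1 libraries ranged from 0.94 to 0.98 and Ribo-Zero S288c libraries from 0.99 to 1. The share of all events that divide by strain was not counted. At the intron antisense to CHS5 the SK1 sporulation libraries ranged from 0.52 to 0.81 (10 values), while the 6 S288c libraries ranged from 0.97 to 0.99 and the 6 TruSeq libraries were all at 1. At SBA1 the sporulation libraries ranged from 0.88 to 0.99, and the S288c and TruSeq libraries were all at 1. PSI 3′ of YAL064W-B was lower still during sporulation than in sk1, between 0.17 and 0.35 in 12 libraries, against 0.96 to 0.99 in S288c. An intron of 960 nt antisense to HPF1, which encodes a cell wall mannoprotein, divided the libraries differently: the sporulation libraries ranged from 0.74 to 0.96, while sk1 had 0.99 and 0.99 and the S288c libraries had 0.97 to 0.99.

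Differences between preparations could be read only side by side, since the TruSeq and Ribo-Zero libraries share no group. The closest pair, -rap and WT, gave means within 0.05 of each other for 56 of the 65 introns with values in both, and the median absolute difference was 0.015. NOP1, the fibrillarin of the box C/D ribonucleoproteins that methylate ribosomal RNA, was far outside this range. Its intron of 108 nt, a multiple of 3, had 1 and 0.99 in -rap and 0.19 and 0.20 in WT (chromosome IV, 427467 to 427574). All 17 Ribo-Zero values of NOP1 lay between 0.81 and 1, and all 6 TruSeq values lay between 0.19 and 0.27, and the S288c and SK1 groups of Ribo-Zero were both high. Preparation cannot be told apart here from strain or culture, since the labels give no strain for TruSeq.

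PDR12, which encodes a transporter of weak organic acids, showed the opposite order 3′ of the gene. The 5 Ribo-Zero values, all from the sporulation libraries, lay between 0.06 and 0.33, and the 4 TruSeq values lay between 0.87 and 0.91. The S288c Ribo-Zero libraries had no value there, so preparation, strain and medium cannot be told apart for PDR12.

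**Figure D4:**
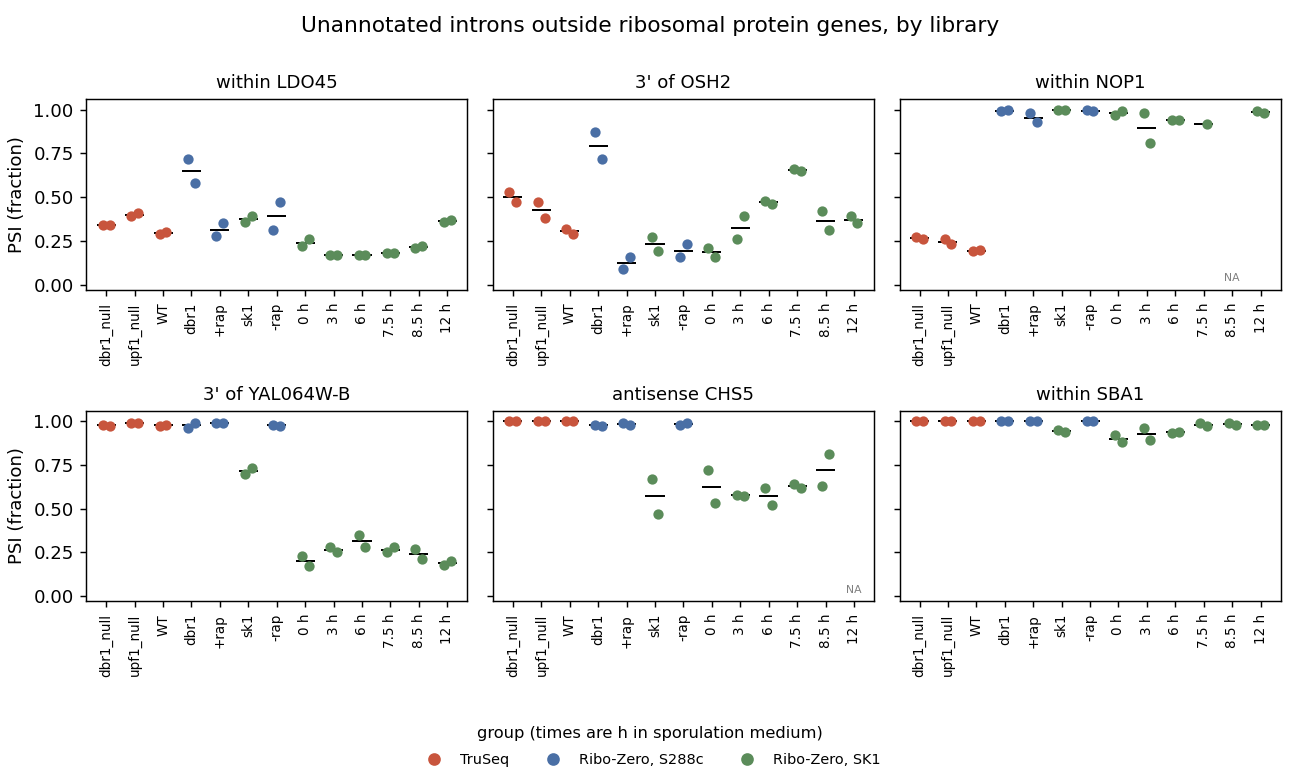
PSI (fraction, y axis) of 6 unannotated introns outside ribosomal protein genes in each library (points) by group (x axis), with the group mean as a bar. NOP1 splits by preparation, YAL064W-B, CHS5 and SBA1 are lower in SK1 libraries, and OSH2 and LDO45 are highest in dbr1 among the groups shown, with 0.795 and 0.65 as means.

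Over the 6 times of sporulation, 26 of the 50 introns with all values differed between times (limma F-test, adjusted p under 0.05), 52.0% of those tested, against 55.3% of all events. Many of these changes were small, and in 14 of the 26 the group means spanned at least 0.05. Between 12 h and 0 h directly, 13 of 57 introns were called (22.8%), 7 as higher and 6 as lower at 12 h, against 27% of all events, 19.1% as higher and 7.87% as lower; 5 of the 13 differed by at least 0.05 and 7 by 0.03 or less.

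SIP18 had the widest range. Its intron, which holds the annotated start of the gene (chromosome XIII, 610808 to 611036), had 0.44 and 0.33 at 0 h, 0.58 and 0.64 at 3 h, 0.77 and 0.85 at 6 h, 0.46 and 0.46 at 7.5 h, 0.74 and 0.64 at 8.5 h and 0.23 and 0.21 at 12 h. The means spanned 0.59 (limma F-test, adjusted p = 0.000174). Both libraries at 6 h were above all others, and both at 12 h were below all others. The share of all events with a time set apart in this way was not counted. Outside the time course the intron was mostly kept, with 0.89 in the 1 sk1 library that had a value and 0.89 and 0.93 in -rap.

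PSI 3′ of OSH2 was highest in the middle of the course. It was 0.21 and 0.16 at 0 h, 0.26 and 0.39 at 3 h, 0.48 and 0.46 at 6 h, 0.66 and 0.65 at 7.5 h, 0.42 and 0.31 at 8.5 h and 0.39 and 0.35 at 12 h, a span of 0.47 (limma F-test, adjusted p = 0.00418). The 7.5 h libraries did not overlap with any other time, and here too the share of all events with such a time was not counted. LDO45 was lowest from 3 to 7.5 h, at 0.17 or 0.18 in all 6 libraries, and had 0.36 and 0.37 at 12 h, against 0.22 and 0.26 at 0 h (span 0.195, limma F-test, adjusted p = 0.0183). Its call was lost without either of the 12 h libraries, with an adjusted p of up to 0.0896, and its difference of 0.125 between 12 h and 0 h did not pass the test (limma adjusted p = 0.0802).

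RPS16B, whose intron runs past the 3′ end of the gene and shares 1 end with an alternative 3′ splice site event of the table (chromosome IV, 306806 to 307073), was kept nearly whole early on and less so late. PSI was 1 and 0.99 at 0 h, 0.99 and 0.94 at 3 h, 0.97 and 0.97 at 6 h, 0.90 and 0.85 at 7.5 h, 0.91 and 0.73 at 8.5 h and 0.86 and 0.87 at 12 h (limma F-test, adjusted p = 0.00105). At 12 h it was lower than at 0 h by 0.13 in the mean (limma adjusted p = 0.00208). IDP3 was lowest at 0 h, with 0.78 and 0.67, and highest at 8.5 h, with 0.94 and 0.96 (span 0.225, limma F-test, adjusted p = 0.00236). In NVJ2, a lipid transfer protein of membrane contact sites, PSI was lowest at 7.5 h, with 0.92 and 0.90 (span 0.075, limma F-test, adjusted p = 0.00574).

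**Figure D5:**
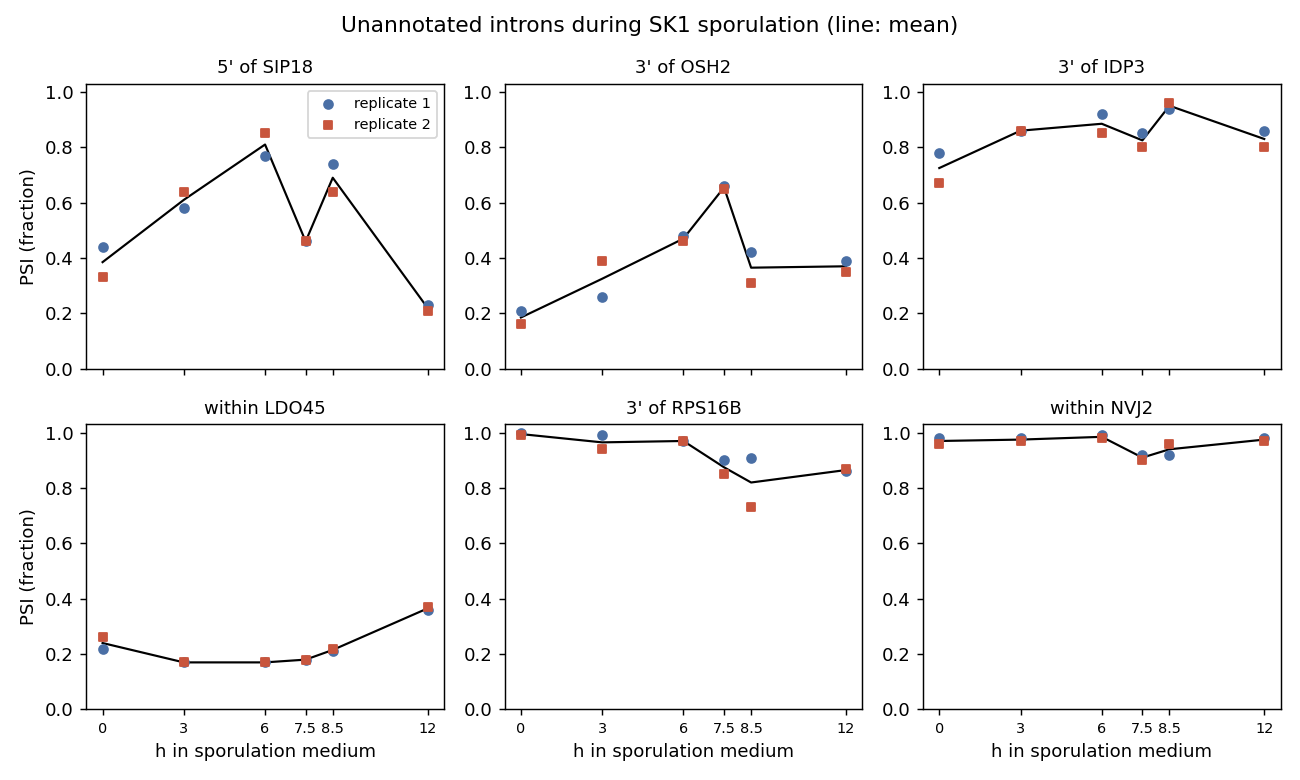
PSI (fraction, y axis) of 6 unannotated introns against time in sporulation medium (h, x axis), with circles and squares for the replicates and a line through the means. SIP18 is highest at 6 h (mean 0.81) and OSH2 at 7.5 h (mean 0.655), while RPS16B is near 1 until 6 h.

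Higher PSI at 12 h than at 0 h was called for SBA1 (difference 0.08, limma adjusted p = 0.00607), for the intron 5′ of IRC10 (0.085, 0.0216), and within ECM9 (0.055, 0.0111), MLO50 (0.05, 0.000198), ESP1, the separase that frees sister chromatids (0.03, 0.0147), and EXO5, a mitochondrial exonuclease (0.025, 0.00631). Lower PSI at 12 h was called 3′ of PTC3, a protein phosphatase (-0.045, 0.0232), within PDC1, the main pyruvate decarboxylase (-0.025, 0.00208), and 5′ of RSB1, a transporter of sphingoid bases (-0.025, 0.0041). Of the 13 calls, 4 held when only the 12 h and 0 h libraries were fitted, and several did not hold without single libraries. The IRC10 call was lost without any 1 of the 4 libraries (limma adjusted p of up to 0.109), PTC3 without 12 h replicate 1, 12 h replicate 2 or 0 h replicate 2 (up to 0.127), ECM9 without 12 h replicate 1 or 0 h replicate 2 (up to 0.0969), ESP1 without 12 h replicate 2 or 0 h replicate 1 (up to 0.098), and SBA1 without 0 h replicate 2 (0.0534).

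HOP2, which keeps non-homologous chromosomes from pairing in meiosis, had a value in 4 libraries only. PSI of its intron of 62 nt (chromosome VII, 436313 to 436374) was 0.09 and 0.15 at 3 h and 0.19 and 0.19 at 6 h, the lowest mean of the 75 introns. The ribosomal protein introns were poorly covered late in sporulation: 4 of the 6 lacked a full pair of values at 12 h, so that only RPL29 and RPS25A could be compared between these times (differences 0.09 and -0.015, limma adjusted p = 0.62 and 0.721). PSI 5′ of RPL29 was 0.12 and 0.53 in the 3 h libraries, the widest pair among the times for this intron.

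Gene lists gave the following counts. Ribosomal protein genes held 8 of the introns, the 6 above and those of RPL5 and RPS16B; 6 of 8 were called in dbr1 (44.2% of all events), 2 of 8 in upf1_null (12.8%), 4 of 8 in +rap, 3 higher and 1 lower (21.9%), 0 of 8 in dbr1_null (3.18%) and sk1 (1.7%), 2 of 4 tested at 12 h against 0 h, both lower (27%), and 2 of 3 tested over the times (55.3%). The lists were chosen with earlier results of these data known, so their counts are a description only. Cell wall and membrane genes were matched to 6 introns, within or antisense to SED1 and CHS5 and 5′ of RSB1. In sk1, 1 of 6 was called, the one antisense to CHS5 (1.7% of all events). At 12 h against 0 h, 1 of 5 tested was called (27%), and over the times 1 of 5 tested (55.3%). The counts were 0 of 6 in dbr1_null (3.18%), upf1_null (12.8%), dbr1 (44.2%) and +rap (21.9%). Glycolysis and fermentation genes held 1 intron, in PDC1, called at 12 h against 0 h and over the times, and chaperone genes held 1, in SBA1, called in these and in sk1; neither was called in dbr1_null, upf1_null, dbr1 or +rap. The 15 translation factor genes and the 20 meiosis and sporulation genes of the lists held none. These lists are not complete: TIF34 and the meiosis gene HOP2 each held an intron and were on neither list.

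Branch points were measured in the same series by Branch-seq, which maps the ends of opened lariats, and by Lariat-seq, which reads across the branch. Of 58 Lariat-seq sites, 1 shared its 5′ splice site with an unannotated intron, the one 3′ of IDP3: 8 reads joined the 5′ splice site at chromosome XIV, 616067, to a branch point at 616230, which is 163 nt downstream and 182 nt before the intron's end. Branch-seq sites were given on another genome build and were matched by gene name alone, so that a site may belong to another intron of the gene. Of the 53 genes with an intron within, 5′ or 3′ of them, 9 had an unannotated Branch-seq point. The most abundant were in MRM2, a methyltransferase of mitochondrial ribosomal RNA, at 95.2 CPM, a read count scaled to library size, and in PUS2, at 94.5 CPM. Points in PTC3 (15.5 CPM), NTH1 (4.13 CPM), TVP15 (1.96 CPM), RPS8B (1.75 CPM), RSB1 (1.29 CPM), NVJ2 (0.417 CPM) and ECM9 (0.292 CPM) were less abundant. The mean PSI of the MRM2 intron was 0.875, and that of the RPS8B intron 0.283. Because CPM is scaled to library size only and sites were matched by gene name, CPM and PSI cannot be ranked against each other here. Branch-seq has a single pooled column and Lariat-seq 1 library, and neither has a replicate check.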

How the data were processed

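PSI values are a fraction, deposited by the authors with 2 decimals for 405 events; the tool that gave them is not given in the sources used here. Per the submitters' processing notes, the tools named for TruSeq are Bowtie, TopHat2 2.0.0, Cuffdiff and Cufflinks 2.2.1 on sacCer3, and for Ribo-Zero Bowtie and TopHat2 on the same build. Branch-seq values are CPM, deposited by the authors as 1 pooled column on sacCer2 (Bowtie 1.0.0, SAMtools 0.1.7a, per the processing notes). All unannotated Branch-seq values (100%) came out as whole reads, within 0.01 reads. Lariat-seq values are junction read counts, per the file headers, on sacCer3.

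Introns were placed with RefSeq genes (assembly R64) as spans without exons: within a same-strand gene, 5′ of it (holding its start or ending up to 100 nt before it), 3′ of it (holding its end), antisense, or else by the nearest same-strand gene within 600 nt; 71 of 75 were matched. The log2 odds, log2((PSI + 0.01)/(1 - PSI + 0.01)), were fitted with limma 3.58.1 in R 4.3.3, with a mean per group, on every event and within each preparation. Events with both values in both groups were tested, two-sided, with Benjamini-Hochberg adjustment over all of them, at 0.05. The fit was tested on simulated data. All values stand for n = 2 libraries per group.

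Named introns are those called in a comparison (at most the 10 with the largest difference), the 15 with the lowest mean PSI, the 3 lowest of each place, the 10 with the widest range of group means, and fixed gene lists. The members and lists were chosen with earlier results of these data known. Alternatives were the offset, the scale, missing values, moderation, a replicate block, a minimum difference, the libraries fitted and each replicate left out; estimating the spread from the tested events only was added after seeing the data.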

Additional observations from a re-analysis of the deposited data

Results flagged for a closer look

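The difference between dbr1 cells and their comparison group was itself compared between preparations, dbr1 minus -rap in Ribo-Zero against dbr1_null minus WT in TruSeq, in 1 limma fit over all 26 libraries that was chosen after the data had been seen. Of 65 unannotated introns with values in all 4 groups, 9 differed (adjusted p under 0.05), against 37.6% of all events. In log2 odds, the dbr1 difference exceeded the dbr1_null difference by 9.36 for RPS29B, 8.97 for RPS25A, 8.28 for RPS8B, 7.71 for RPS26B, 7.58 for RPS29A and 6.81 for RPL29, all at the introns 5′ of these genes. Where PSI in dbr1 was 1, the offset of 0.01 sets the log2 odds, so the size and order of these excesses depend on it. The highest limma adjusted p among these 6 was 0.000103, for RPS26B. The excess was 3.59 for the intron on chromosome IV with no gene nearby (limma adjusted p = 0.00197), 2.84 3′ of OSH2 (0.00112) and 1.25 within LDO45 (0.0298). Preparation, strain, culture and control group differ together between these pairs and cannot be told apart.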

How the results depend on the processing

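With the spread estimated from the tested events only, each count stayed within 1.5 times its value. A minimum difference of 0.05 left 3 calls in upf1_null, 5 at 12 h against 0 h, and 14 over the times. Requiring a value in every library of the preparation left 3 calls in dbr1 and 0 in +rap (1 with an unadjusted p under 0.05), where fewer events are tested. In sk1 it gave 5 calls, of which 2 were among the 3 reported. Of the introns 5′ of ribosomal protein genes, only that of RPL29 had a value in all 20 Ribo-Zero libraries. The others, and the intron antisense to CHS5, were therefore not tested in this setting. Fitting the compared libraries alone gave 2 calls in upf1_null, 1 in +rap, 8 in sk1, of which 2 were among the 3 reported, and 5 at 12 h, where fewer libraries set the spread. Untransformed PSI gave 13 calls over the times; the cause was not tested. Leaving out 1 replicate gave 0 to 3 calls in dbr1_null, 3 to 7 in upf1_null, 10 to 11 in dbr1, 0 to 5 in +rap, 3 to 5 in sk1, 7 to 10 at 12 h and 21 to 27 over the times. Of the 21 introns with a mean PSI under 0.9, a threshold of 0.95 gave 32, the TruSeq libraries alone 13, a value in all 26 libraries 5, and 1 replicate of each group 20 to 22.

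Nothing in the labels ties equal replicate numbers across groups, and the correlations of their deviations ranged from -0.383 to 0.362 over the paired comparisons. With the replicate block, the counts were 0 in dbr1_null, 2 in upf1_null (antisense to TOS2 and 5′ of YMC1), 10 in dbr1, 6 in +rap, 4 in sk1, 13 at 12 h and 25 over the times. No named intron reversed its direction in a comparison of 2 groups where the main result or the alternative was called. Direction was not checked for results called in neither, nor for the F-test over times. Of the values recomputed, 2321 kept their side of the threshold, 134 fell short of it and 34 newly passed it. Depth per intron is unknown, and PSI in steps of 0.01 near 1 limits what can be told apart there.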
